A study of Homo sapiens with 47 samples.

Results

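H3K4me3 was compared between PC3 cells that overexpress SLC6A4 and PC3 cells with the empty vector, by chromatin immunoprecipitation and sequencing (ChIP), in 6 of the 47 samples of the series. The members are the regions of 1 deposited count table, the peak list of another mark, H3K4me3Q5ser, so H3K4me3 was read where that second mark had been called. Of its intervals, 18805 passed the filter on low counts and 730, with a median length of 403 bp, did not. PC3 is an established human prostate cancer cell line, and the cells were transduced with the SLC6A4 construct (genotype SLC6A4 OE) or the empty vector (genotype Empty Vector OE), with 3 libraries each. Promoter, dose and clonality of the constructs are not given in the sources used here, nor whether the libraries of a line came from separate cultures. The libraries of another line, DDC OE, share the empty-vector controls and served only as values beside these.

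H3K4me3 is the trimethylated form of lysine 4 on histone H3. COMPASS-type methyltransferases place it around the start sites of active and poised genes, many of them in CpG islands, and it is read by factors that help to load the transcription machinery. SLC6A4 is the serotonin transporter. Transglutaminase TGM2 can attach serotonin to the glutamine that follows this lysine, which gives H3K4me3Q5ser, and the series concerns that mark in the plasticity of prostate cancer cells.

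The promoter windows of 2 genes whose regions gained H3K4me3 and of 2 genes whose regions lost it are shown because those regions are among the ones of smallest p or largest change. Each window runs 5′ to 3′ on the gene's strand from 250 bases before to 50 bases after the start site (RefSeq, GRCh38.p14), and capitals mark the CG dinucleotides.
ZNF134: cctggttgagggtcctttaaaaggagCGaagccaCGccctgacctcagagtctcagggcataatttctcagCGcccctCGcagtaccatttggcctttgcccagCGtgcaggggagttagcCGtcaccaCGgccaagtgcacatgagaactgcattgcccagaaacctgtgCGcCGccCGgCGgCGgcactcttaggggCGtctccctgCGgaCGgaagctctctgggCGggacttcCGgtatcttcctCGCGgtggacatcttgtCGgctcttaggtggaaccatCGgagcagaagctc
ZNF17: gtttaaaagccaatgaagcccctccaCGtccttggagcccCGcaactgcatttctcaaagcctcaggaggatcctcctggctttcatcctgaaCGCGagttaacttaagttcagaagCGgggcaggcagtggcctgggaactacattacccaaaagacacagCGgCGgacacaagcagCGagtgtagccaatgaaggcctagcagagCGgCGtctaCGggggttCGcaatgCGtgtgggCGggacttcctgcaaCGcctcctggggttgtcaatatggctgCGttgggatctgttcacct
EPC1: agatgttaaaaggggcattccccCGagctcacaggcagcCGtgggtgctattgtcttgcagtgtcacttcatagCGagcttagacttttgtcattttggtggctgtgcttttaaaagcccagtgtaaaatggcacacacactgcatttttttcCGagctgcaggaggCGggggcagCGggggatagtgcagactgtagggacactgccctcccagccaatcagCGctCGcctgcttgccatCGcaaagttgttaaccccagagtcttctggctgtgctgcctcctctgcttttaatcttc
BCHE: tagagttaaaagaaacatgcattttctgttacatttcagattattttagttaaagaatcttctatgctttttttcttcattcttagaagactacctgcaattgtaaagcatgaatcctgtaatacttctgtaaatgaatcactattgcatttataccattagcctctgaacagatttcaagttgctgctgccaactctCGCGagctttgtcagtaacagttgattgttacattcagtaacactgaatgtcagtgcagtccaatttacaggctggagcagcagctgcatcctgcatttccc
ZNF134 (chr19:57613992-57614291, plus strand) and ZNF17 (chr19:57410911-57411210, plus strand) encode zinc-finger proteins, and their windows hold 21 and 16 CG dinucleotides at 61.0% and 56.3% GC. EPC1 (chr10:32378720-32379019, minus strand), a subunit of the NuA4 acetyltransferase complex, has 9 at 53.0% GC. BCHE (chr3:165837374-165837673, minus strand), which encodes butyrylcholinesterase, has 2 at 36.7% GC. The letters TATAAA, searched on both strands, were found in the BCHE window but not in the other 3. Of 9657 promoter windows of the same length matched to tested regions, 5.14% held them. They were in 3.94% of the windows whose region was higher in SLC6A4 cells, in 7.43% of those whose region was lower and in 2.3% of the 174 windows of zinc-finger genes on chromosome 19. The median number of CG dinucleotides was 28 in the higher set, 25 in the lower set and 20 in the zinc-finger set. With the calls from GC offsets, a fit described below, it was 26 in both the higher and the lower set.

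The H3K4me3 libraries held 3429746 to 4343826 read pairs in regions for the empty vector and 4735625 to 5811090 for SLC6A4. Replicates were close. A chi-square test of counts between libraries of a line gave 1.016 to 1.019 per degree of freedom within the empty vector, and 1.008 (p = 0.22) between SLC6A4 libraries 1 and 2, which did not differ beyond the sampling noise. SLC6A4 library 3 differed more, at 1.045 from library 1 and 1.055 from library 2, or 1.012 and 1.02 once 3 regions on exons of PRL were left out. The p-values therefore measure a spread close to counting noise, which may be technical, and the biological coefficient of variation of edgeR came out at 0.988%, the lowest value on its search grid. With libraries 1 and 2 summed and counted as 1 sample, 11611 regions were called in place of 11637. RNA of SLC6A4 was 0, 0 and 0.89 normalised reads with the empty vector and 89.7, 112 and 133 in the SLC6A4 line, the line labelled with that construct. Summed RNA of 12 markers of blood, endothelial, fibroblast and liver cells was 401 to 970 normalised reads with the empty vector and 165 to 212 with SLC6A4, against 11800 to 15800 and 13100 to 14000 for 5 markers that PC3 cells express. Of the defining markers, CD3E, DCN and ALB were at 0 in all 6 RNA libraries, and HBB had 547 normalised reads in 1 empty-vector library and 0 elsewhere. PECAM1 (217 to 241 and 35.3 to 52.3) and CD68 (132 to 143 and 113 to 132) made up most of the sums outside HBB. The part of other cells in the results was not tested.

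Regions rich in G and C read higher and regions rich in A and T read lower in SLC6A4 cells. At an adjusted p of 0.05 in the quasi-likelihood test of edgeR, 5896 regions were higher (31.4% of those tested) and 5741 lower (30.5%). A change of at least 2-fold was called for 436 regions up (2.32%) and 637 down (3.39%). The median region GC content was 52.7% in the former, 34.9% in the latter and 46.9% over all regions tested. Regions changed by 2-fold were also short, with median lengths of 1410.5 bp (up) and 974 bp (down) against 4339 bp. In bulk chromatin, fewer cells that carry the mark and less mark per cell cannot be told apart.

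The trend ran through the whole range of base composition. The median log2 fold change was -0.97 in regions of 35% GC or less, where 570 of 701 were called lower and 31 higher. It was -0.54, -0.23, 0.03, 0.25, 0.40 and 0.50 in successive steps of 5 percentage points, and 0.52 above 65% GC, where 373 of 578 were called higher and 3 lower. Relative to the mean input library of the empty vector, the log2 level climbed by 0.469 to 0.486 per 10 points of GC in the 3 SLC6A4 libraries. With the empty vector it climbed by 0.093 to 0.108, in the DDC line by 0.028 to 0.0696, and in empty-vector input it changed by -0.0122 to 0.00366. The H3K4me3Q5ser libraries of the same lines gave 0.629 to 0.634 for SLC6A4 and 0.149 to 0.168 for the empty vector. All 3 libraries of a line shared its slope, so this trend and the line cannot be told apart. The level in regions with an H3K4me3 peak over that in regions without one was 1.84 to 1.86 for SLC6A4, 2.00 to 2.04 for the empty vector and 1.05 to 1.06 in empty-vector input.

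**Figure D1:**
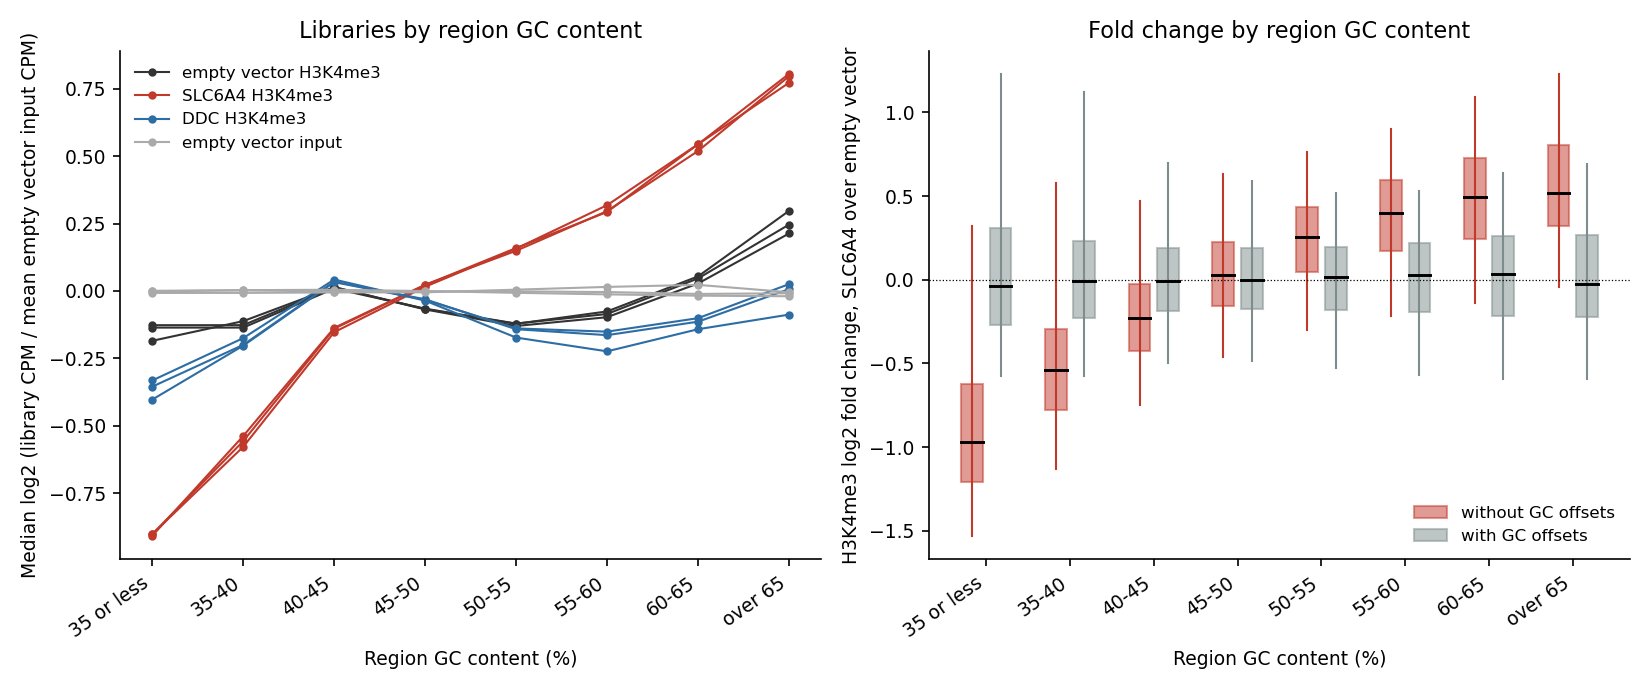
Left, median log2 ratio of each library's level (CPM) to the mean empty-vector input, in 8 classes of region GC content (%), 1 line per library. Right, H3K4me3 log2 fold change of SLC6A4 over empty vector in the same classes, with and without GC offsets; the black bar is the median, boxes span the 25th to 75th and lines the 5th to 95th percentile of regions. The SLC6A4 lines climb across the range, and the medians on the right run from -0.97 to 0.52 without offsets.

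Because of this trend, a second fit was made, in which a smooth curve of every library on region GC content served as an offset. Such a fit takes out any difference that runs with GC content, whatever its source. It called 4139 regions higher (22%) and 3727 lower (19.8%), and at 2-fold 405 higher (2.15%) and 74 lower (0.394%). Of the regions called in both fits, 5574 kept their direction and 406 turned. The rises of 2-fold were in part other regions, since 216 of the 436 kept that size, and of the 637 falls 38 did. In 12061 of the tested regions (64.1%) the 3 libraries of one line lay above all 3 of the other, and 10889 of these were called without offsets.

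Regions near start sites were called higher more often than regions elsewhere. Of 9586 regions within 1000 bp of a protein-coding start, 39.0% were higher and 28.7% lower (27.2% and 20.3% with offsets), with a median log2 change of 0.07 (0.03 with offsets). Of 4554 regions further inside coding genes, 25.4% were higher and 31.3% lower (16.9% and 17.2% with offsets). Of 2883 regions between coding genes, 15.2% were higher and 36.4% lower (14.4% and 19.9% with offsets). These 2 classes were at medians of -0.06 and -0.19 (-0.02 and -0.07 with offsets). Regions that changed by 2-fold mostly lay away from H3K4me3 peaks when higher: 352 of 436 rises and 283 of 637 falls overlapped no such peak. The same held for 342 of the 405 rises with offsets. Of all 18805 regions tested, 6368 overlapped none. By chromosome, the median change was highest on 19 (0.48, and 0.25 with offsets), 22 (0.35 and 0.12) and 16 (0.30 and 0.09), and lowest on 4 (-0.26 and -0.07) and 6 (-0.21 and -0.07). Falls of 2-fold with offsets were few on every chromosome, with 8 on 21 as the highest number.

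H3K4me3 in SLC6A4 cells was higher over the zinc-finger gene clusters of chromosome 19, in both fits. Most of these genes encode KRAB zinc-finger proteins, DNA-binding repressors many of which silence transposable elements, and their bodies in many cell types carry the heterochromatic mark H3K9me3. Regions were grouped, after their values had been seen, by gene symbols that begin with ZNF, ZSCAN, ZFP, ZIK or ZKSCAN. Of 178 promoter regions of such genes on chromosome 19, 161 were called higher and 1 lower (90.4% higher, against 31.4% of all regions tested), with a median log2 fold change of 0.69, and 158 and 3 with GC offsets, at a median of 0.77. The 351 other regions in or next to these genes were more changed: 296 were higher and 2 lower, with a median of 0.88 without offsets and 1.21 with them. Zinc-finger promoters on other chromosomes gave 118 higher and 44 lower of 231 and a median of 0.18 (0.16 with offsets). The 493 other promoters of chromosome 19 had a median of 0.37, which was 0.07 with offsets. Of the 405 regions higher by 2-fold with GC offsets, 290 lay on chromosome 19 (71.6%, against 8.06% of all regions tested). Zinc-finger genes on any chromosome held 284 of the 405, against 1019 of the 18805 regions tested. An H3K4me3 peak overlapped 15.6% of the 405, against 66.1% of all regions tested.

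The smallest p-values among the rises were at zinc-finger promoters. The region over the starts of ZNF134 and ZNF530 (chr19:57588767-57627739) read 197, 207 and 215 CPM with the empty vector and 454, 470 and 460 CPM with SLC6A4. The SLC6A4 libraries stood far above the others (log2 fold change 1.16, SE 0.0325, adjusted p = 9.42e-271 by edgeR, and 1.26 with GC offsets). The adjacent region of ZIK1, ZNF416 and ZNF550 (chr19:57544562-57583224) read 229, 228 and 220 CPM against 469, 475 and 460 CPM, a log2 change of 1.05 and of 1.11 with offsets. At ZNF17 (chr19:57393769-57424490) the values were 145, 138 and 138 CPM against 294, 284 and 286 CPM. These 3 regions span starts and exons of their genes. Lack of overlap between the groups was a condition of the choice, and 64.1% of all tested regions met it. The DDC libraries, scaled together with the other 6, read 301, 297 and 286 CPM at ZNF134, 295, 290 and 305 CPM at ZIK1 and 195, 184 and 185 CPM at ZNF17, above the empty vector and below SLC6A4. ZNF551 (log2 1.13, and 1.26 with offsets), ZNF667 (1.34 and 1.24) and the region shared by ZNF136 and ZNF625 (0.90 and 0.90) completed the chromosome 19 genes among the 8 rises of smallest p. The other 2 of the 8 behaved differently. ZNF503, a zinc-finger regulator on chromosome 10, rose by 0.66 and by 0.25 with offsets, and the gene-dense region at CPSF1 by 0.59 and by 0.15.

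Input libraries were read at the same regions. At the 351 zinc-finger regions of chromosome 19 outside promoters, the median density was 5.28 to 5.56 CPM per kb in the H3K4me3 libraries of the empty vector, 7.4 to 7.65 in those of the DDC line and 10.5 to 10.9 in those of SLC6A4. Input libraries read higher there than H3K4me3 of the same line, at 9.08 to 9.44 CPM per kb for the empty vector and 11.7 to 11.8 for DDC. The SLC6A4 values thus lay above the input of the empty vector and below the input of the DDC line. At the 178 promoters the order was 6.37 to 6.52, 8.19 to 8.49 and 11.2 to 11.5 CPM per kb for H3K4me3 of the empty vector, DDC and SLC6A4, with input at 7.05 to 7.18 (empty vector) and 8.72 to 8.92 (DDC). Over the 8684 promoters of other genes and chromosomes, the inputs read 8.25 to 8.29 and 8.27 to 8.31. Input of the SLC6A4 line was not analysed here, and its part in the rises was not tested.

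H3K4me3Q5ser changed less than H3K4me3 at these regions. Its median log2 change was 0.41 at the 178 promoters (0.38 with GC offsets) and 0.12 at the 351 other regions (0.43 with offsets). RNA was called changed for few of these genes. Of 120 zinc-finger genes of chromosome 19 with a tested promoter region and tested RNA, 1 rose and 3 fell. Of all 9778 genes with a tested promoter region, 1079 rose and 878 fell. The median log2 change of the 120 was -0.07. Their spread was about as wide as that of the 9778, with 5th to 95th percentiles of -0.68 to 0.38 against -0.67 to 0.51.

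**Figure D2:**
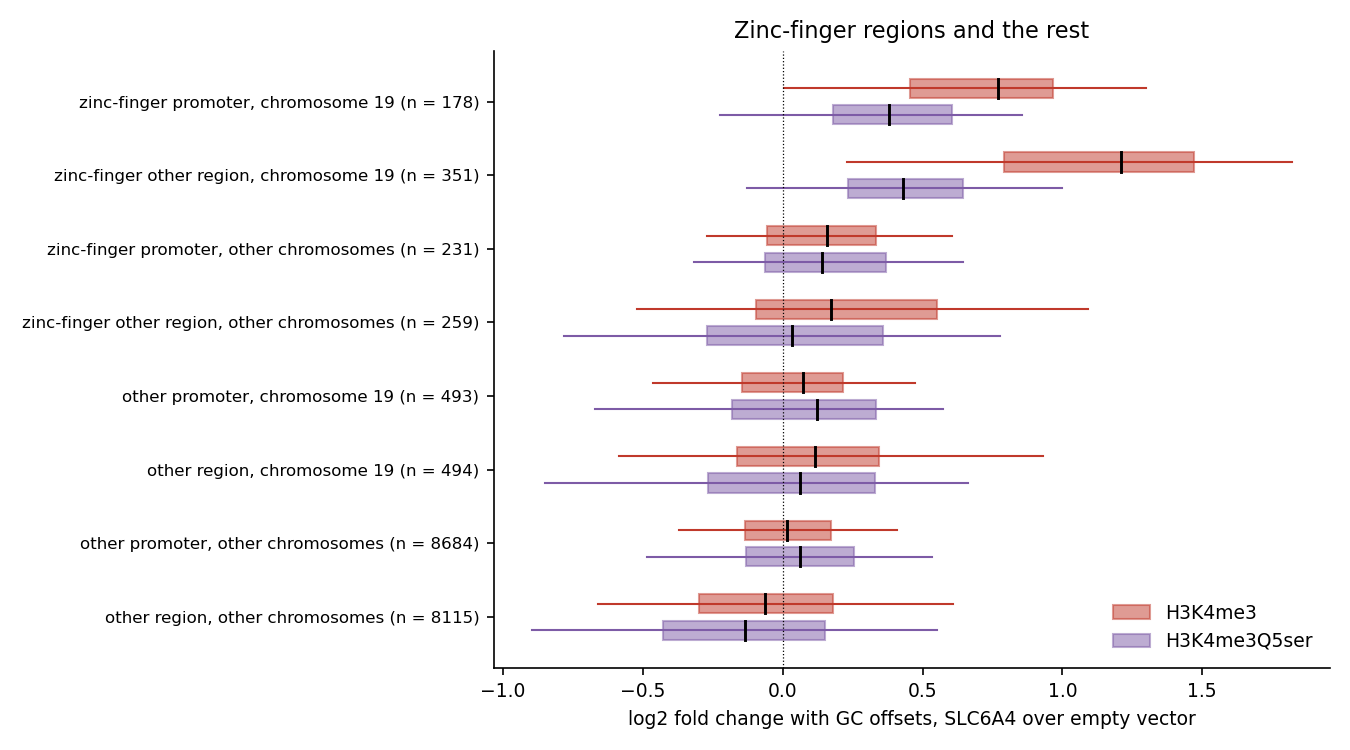
Log2 fold change with GC offsets (SLC6A4 over empty vector) by class of region, for H3K4me3 and for H3K4me3Q5ser; the black bar is the median, boxes span the 25th to 75th and lines the 5th to 95th percentile, and n counts regions. H3K4me3 medians are 0.77 and 1.21 in the zinc-finger classes of chromosome 19 and between -0.06 and 0.17 in the other 6.

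Without offsets, falls were strongest in AT-rich regions inside genes and between them. The 74 falls of 2-fold with GC offsets had a median GC content of 50.9% and a median length of 501 bp. A region over an exon of JMJD1C (chr10:63260787-63271322, 34.7% GC), a Jumonji-family demethylase gene, read 850, 809 and 825 CPM with the empty vector and 439, 450 and 452 CPM with SLC6A4. The SLC6A4 libraries sat far below the others, and the log2 change of -0.89 shrank to -0.10 with GC offsets. EPC1 (chr10:32372016-32382505) went from 502, 492 and 490 CPM to 252, 250 and 259 CPM, which is -0.96 and -0.26 with offsets. At an exon of SEMA3A, an axon-guidance ligand, the change was -1.21 (-0.31 with offsets). At an exon of HDAC9, a class II deacetylase, it was -1.23 (-0.43), and in an intron of CTNNA3, an alpha-catenin, -1.51 (-0.37). The other 3 falls of smallest p lay outside coding genes, nearest to IFNE (-0.93, -0.25 with offsets), DKK1 (-0.97, -0.44) and DCBLD2 (-1.03, -0.26). For all 8 the direction and the call held with offsets, at a smaller size.

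The largest falls without offsets, among regions with a mean log2 CPM of at least 3, were of the same kind. NEDD4, a ubiquitin ligase gene, had a region over an exon at 62.0, 62.9 and 58.9 CPM with the empty vector and 16.4, 17.5 and 18 CPM with SLC6A4 (log2 -1.82, SE 0.0965, and -0.72 with offsets). The promoter region of BCHE (chr3:165835776-165837518) read 37.1, 40.9 and 38.6 against 12.1, 11.5 and 11.9 CPM (-1.72, and -0.71 with offsets). In both, the groups were far apart. A region of 241 bp in an intron of PCDH15 kept most of its change (-1.67 and -1.20). The remaining 5, in introns of EVI5 (-1.80) and LTBP1 (-1.74) and nearest to KCTD8 (-1.78), KHDRBS2 (-1.68) and SLC16A7 (-1.68), came to between -0.95 and -0.36 with offsets, and the region nearest to KCTD8 then missed the threshold (adjusted p = 0.0685 by edgeR).

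Among the 8 largest rises at a mean log2 CPM of at least 3, 5 belonged to zinc-finger genes of chromosome 19. The promoter region of RORB, an orphan nuclear receptor (chr9:74496715-74498656), had the largest change of these 8, from 4.45, 8.42 and 6.95 CPM to 21.6, 22.3 and 28.3 CPM (log2 1.84, SE 0.160, and 1.43 with offsets). A region in an intron of ZNF432, at the start of a gene that is not protein-coding (chr19:52062079-52062793), read 4.75, 2.81 and 3.35 against 13.7, 11.9 and 12 CPM (1.81, and 2.40 with offsets). H3K4me3Q5ser there changed by -0.24. Exon regions of ZNF418 (1.79), FGF12 (1.81) and the phospholipid flippase ATP10A (1.78), the promoter region of ZNF470 (1.64) and regions nearest to ZNF442 (1.73) and ZNF544 (1.63) followed, at 1.24 to 1.84 with offsets. Levels were low, at most 12.2 CPM per library with the empty vector. Among these 32 regions of smallest p and largest change, the largest adjusted p was 3.9e-12.

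**Figure D3:**
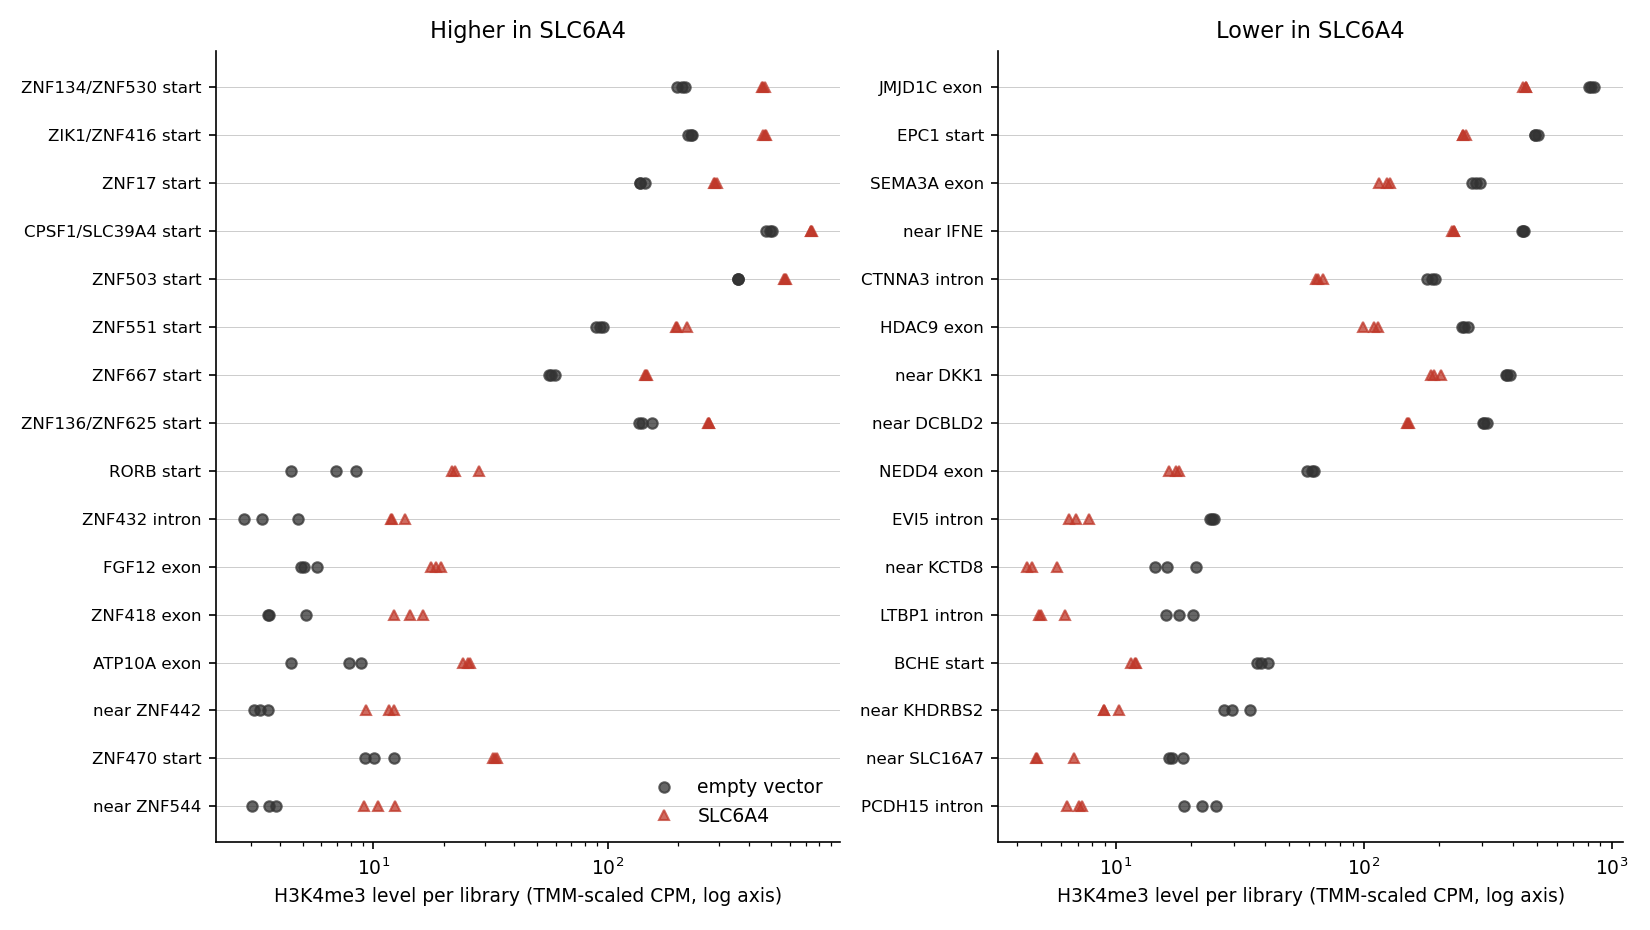
H3K4me3 level per library (TMM-scaled CPM, log axis) in the 8 regions of smallest p and the 8 of largest change in each direction, with circles for empty vector and triangles for SLC6A4 (3 libraries each). The regions were chosen as ones whose groups do not overlap, those of largest change also at a mean log2 CPM of at least 3. The fold changes are largest in the lower rows, where levels are low, from 4.45 to 28.3 CPM at RORB.

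A few exon regions were picked out after their values had been seen. At an exon of SLC6A4 itself (chr17:30221618-30221961, the 1 region of this gene that was tested) the H3K4me3 counts were 2, 3 and 7 with the empty vector and 20, 15 and 23 in the SLC6A4 line, and those of H3K4me3Q5ser 10, 8 and 2 against 144, 160 and 139. No region near the start site of SLC6A4 was tested. At an exon of PRL, the prolactin gene (chr6:22287271-22287634), counts were 12, 11 and 13 with the empty vector and 17, 14 and 534 with SLC6A4, so the fitted rise of 3.53 rests on library 3 alone. Another 2 PRL exons gave 5, 7 and 132 and 3, 2 and 182 in the SLC6A4 libraries. H3K4me3Q5ser at the first exon gave 384, 401 and 366 with the empty vector and 14, 12 and 498 with SLC6A4, so library 3 was the high one of the SLC6A4 line in both marks. Scaled to depth, that exon read 90.5 CPM in H3K4me3 library 3, 20.5 CPM in H3K4me3Q5ser library 3 and 14.8 to 16.1 CPM in H3K4me3Q5ser of the empty vector. Whether counts at these exons are signal of the marks was not tested.

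Most genes of cholesterol synthesis had more promoter H3K4me3 and more RNA. Of the 18 gene lists, this one had 10 of its 16 tested promoter regions higher and 1 lower, 11 and 1 with GC offsets (against 39.0% and 28.7% of coding promoter regions, or 27.2% and 20.3% with offsets), with medians of 0.21 and 0.20. RNA rose for 15 of 17 members and fell for none, against 10.2% and 9.28% of all genes. SQLE, the squalene epoxidase, read 285, 285 and 272 CPM with the empty vector and 338, 340 and 325 CPM with SLC6A4 (log2 0.25, and 0.56 with offsets, RNA 0.99). HMGCS1, which makes HMG-CoA, changed by 0.19 (0.44 with offsets, RNA 1.30), lanosterol synthase LSS by 0.54 (0.30, RNA 0.71) and the mevalonate decarboxylase gene MVD by 0.61 (0.35, RNA 0.65). At FDPS, the farnesyl diphosphate synthase, the rise of 0.29 became 0.04 with offsets. PMVK, the phosphomevalonate kinase, was lower with offsets (-0.23).

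The chemokine genes CXCL1, CXCL2, CXCL3, CXCL5 and CXCL8 had less promoter H3K4me3 and less RNA. In the list of NF-kB and cytokine genes, of 11 tested regions 7 were lower and 1 higher, and 8 and 0 with offsets, with medians of -0.30 and -0.19, against 28.7% of coding promoter regions lower, or 20.3% with offsets. RNA fell for 8 of 12 members and rose for none, against 9.28% and 10.2% of all genes. TNFAIP3 (-0.42, and -0.39 with offsets) and IL6 (-0.27 and -0.28) were lower in H3K4me3 with no change called in RNA, and CSF2 was higher without offsets (0.47). The promoter region of the neutrophil chemokine CXCL1 read 151, 155 and 156 CPM with the empty vector and 94.3, 92.8 and 91.5 CPM with SLC6A4, with no overlap (-0.73, -0.64 with offsets, RNA -1.53). CXCL5 fell by 0.97 (-0.47 with offsets, RNA -2.60) and CXCL3 by 0.62 (-0.15, RNA -1.96). CXCL8, which encodes interleukin-8, fell by 1.11 without offsets and by 0.14 with them (RNA -0.61), in a region of 32.0% GC. IL1B RNA fell by 1.83 with no change called at its promoter region (-0.03, adjusted p = 0.755 by edgeR).

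Immediate early genes, whose transcription starts within minutes of a stimulus, looked different in the fits. Without offsets 3 of 10 regions were higher and 1 lower, and with offsets 8 were lower and 0 higher. Of all coding promoter regions, 39.0% were higher and 28.7% lower, or 27.2% and 20.3% with offsets. FOSB had the clearest fall, from 44.5, 49.3 and 46.7 CPM to 31, 33.2 and 32 CPM (-0.55, and -0.93 with offsets). EGR1 gave -0.21 and -0.75, and JUND turned from 0.22 to -0.24. Among targets of YAP and TEAD, the effectors of Hippo signalling, 5 of 10 regions were lower and 3 higher (6 and 0 with offsets). RNA of 6 of 10 of these genes rose and none fell, against 10.2% and 9.28% of all genes. The 3 higher regions, of AXL, AMOTL2 and AJUBA, belonged to genes with more RNA, and were not called with offsets. Of the lower ones, CCN1 and CCN2 (-0.34, and -0.41 with offsets) had more RNA, and CRIM1, TEAD1 and F3 had no RNA change called. CCN1, a gene for a matricellular protein, shares a region with DDAH1 that read 130.3, 124.1 and 128.9 CPM against 109.9, 117.1 and 107.8 CPM (-0.20, and -0.28 with offsets), while its RNA rose by 1.62.

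The G1/S and replication list had 10 of 16 regions higher and 2 lower, and 7 and 1 with offsets, against 39.0% and 28.7% of coding promoter regions (27.2% and 20.3% with offsets). RNA was up for 10 and down for none, against 10.2% and 9.28% of all genes. Its named members were the licensing factor CDT1 (0.64, and 0.19 with offsets), the helicase subunit gene GINS2 (0.68 and 0.44) and MCM7 (0.26 and 0.06). Among 15 G2/M and mitosis regions 4 were higher and 5 lower, and 4 and 1 with offsets. RNA of this list rose for 8 of 15 genes and fell for none. Its regions of smallest adjusted p were CDK1 (-0.65, and -0.06 with offsets, the latter not called) and AURKA (0.40 and 0.61). Of 17 regions of the H3K4 methylation machinery with TGM2, 10 were higher and 2 lower, and 7 and 4 with offsets, against the same shares. WDR5, the shared subunit of the methyltransferase complexes, rose from 28.5, 30.2 and 31.4 CPM to 48.9, 53.9 and 45.8 CPM (0.71 and 0.37). RBBP5, a second shared subunit, gave 0.14 and 0.41, and the demethylase gene KDM1A -0.40 and -0.20. The region that SETD1B shares with RHOF turned from 0.20 to -0.23. TGM2 itself (chr20:38161312-38165881) read 65.3, 65 and 59.9 CPM against 73.9, 72 and 68.3 CPM, a log2 change of 0.17 that became -0.09 with offsets (adjusted p = 0.327 by edgeR), while its RNA rose by 0.73.

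Markers of lineage gave mixed results. Of all coding promoter regions, 39.0% were higher and 28.7% lower, or 27.2% and 20.3% with offsets, and several counts here lie near these shares. Of 11 luminal epithelial regions 6 were higher and 1 lower, and 2 and 3 with offsets. RNA fell for 8 of 12 luminal genes and rose for none, against 9.28% and 10.2% of all genes. At ESRP1, an epithelial splicing regulator, H3K4me3 rose from 45.1, 43.95 and 44.3 CPM to 66.4, 72.8 and 73.9 CPM (0.68, and 0.27 with offsets), whereas H3K4me3Q5ser changed by -0.48 and RNA by -1.28. The change of the second mark there differed from that of H3K4me3 by -1.17 (adjusted p = 4.5e-30 for the interaction, edgeR). EPCAM fell by 0.40 (-0.31). Of 12 mesenchymal and matrix regions 4 were higher and 6 lower, and 2 and 5 with offsets, with falls at FN1, which encodes fibronectin (-0.53, -0.35 with offsets, RNA -1.84), CDH2 (-0.44 and -0.44) and ZEB1 (-0.46 and -0.35). Of 7 basal and anchoring regions 5 were lower with offsets, with LAMA3 at -0.21, and ITGB4 went from 0.30 to -0.13, the latter not called. Only 3 of 18 neuroendocrine markers had a tested promoter region: SYT1 (-0.43), ENO2 (0.38) and DLL3 (0.25), and with offsets none of the 3 was called. Among 9 neural and plasticity factors, PEG10 fell (-0.60, and -0.42 with offsets), POU3F2 rose by 1.13 from counts near the filter and did not pass with offsets (0.64, adjusted p = 0.0747 by edgeR), and FOXA2 went from 0.32 to -0.03.

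The remaining lists changed in no common direction in both fits. Hypoxia and glycolysis had 5 of 12 regions higher and 4 lower (1 and 4 with offsets) beside RNA falls for 9 of 12 genes. Of all coding promoter regions, 39.0% were higher and 28.7% lower (27.2% and 20.3% with offsets), and RNA fell for 9.28% of all genes. VEGFA, the angiogenic growth factor, gave 0.42 and 0.02. RNA of the secretory and mucosal defence genes fell for 14 of 14, and only 3 of the 14 had a tested promoter region. The interferon response had 3 higher and 4 lower of 9 (0 and 1), housekeeping genes 5 and 3 of 12 (4 and 3), keratin and plasminogen genes 1 and 0 of 4 (0 and 3), secretory and mucosal defence genes 2 and 1 of 3 (0 and 2), and serotonin and tryptophan handling 2 and 1 of 4 (0 and 0). In the last list, KMO, which acts in the kynurenine branch of tryptophan breakdown, fell by 0.84 without offsets and changed by -0.10 with them, and MAOA, which degrades serotonin, gave 0.33 and 0.15.

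**Figure D4:**
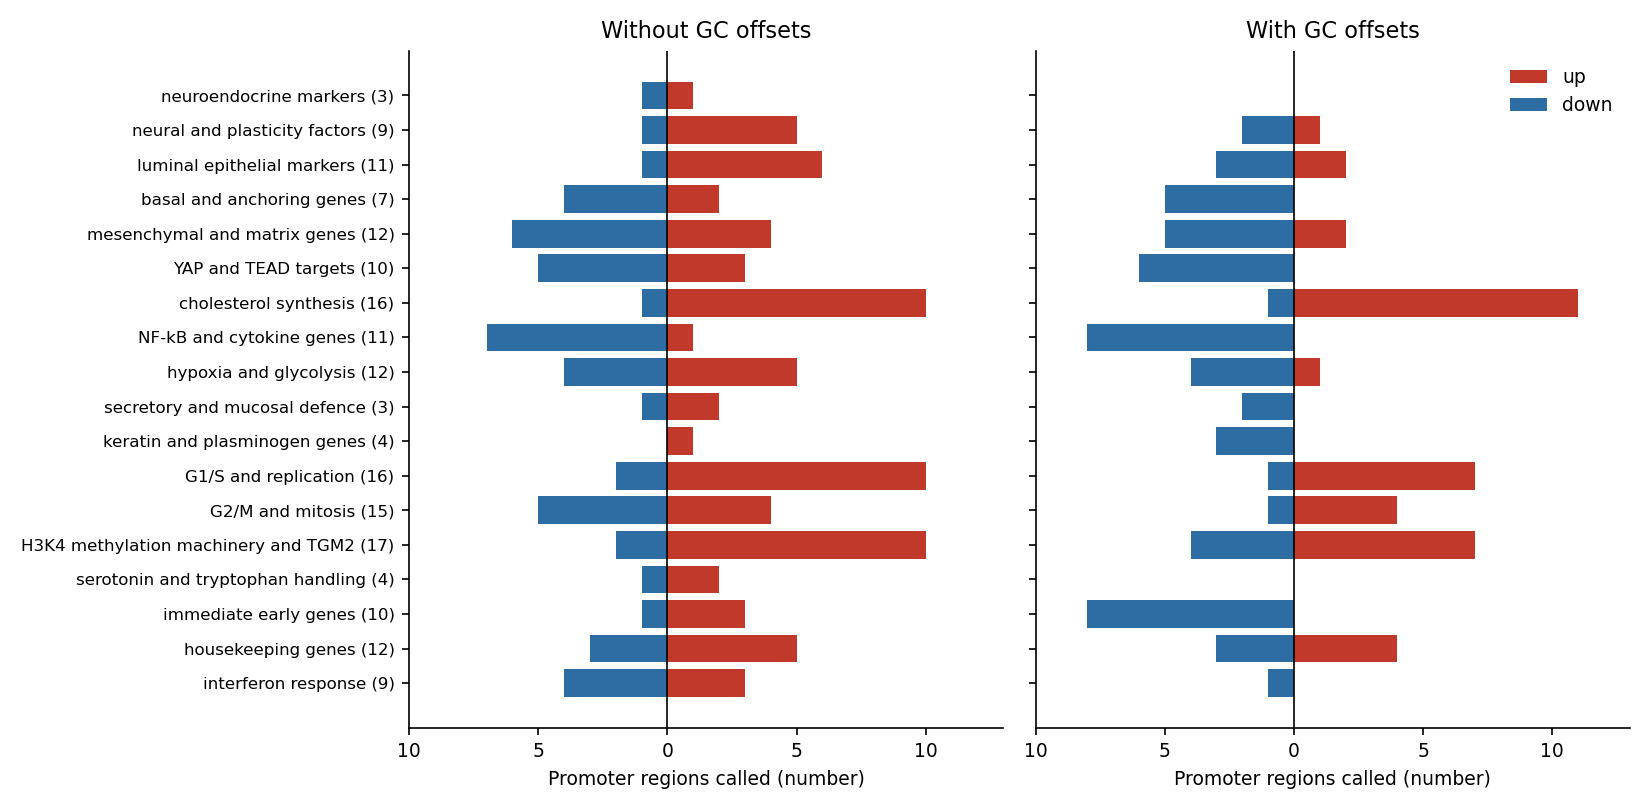
Number of promoter regions called higher (right of 0) and lower (left of 0) in each of 18 gene lists, without and with GC offsets, with the number of tested regions in parentheses. Cholesterol synthesis is higher in both panels (10 and 11 regions), NF-kB and cytokine genes are lower in both (7 and 8), and immediate early genes go from 1 to 8 lower.

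Promoter H3K4me3 followed RNA only loosely. Across 9778 genes with a tested promoter region, Spearman's rho of the log2 changes was 0.109, and 0.119 with GC offsets; genes are not independent replicates. With offsets, 57 of the 157 genes whose RNA fell by at least 2-fold had a lower region and 20 a higher one (36.3% and 12.7%, against 19.6% and 30% of all 9778), and their median was -0.07 against 0.04. Of 55 genes whose RNA rose by at least 2-fold, 19 had a higher and 13 a lower region. EHF, an epithelial ETS factor, fell in both readouts, from 48.1, 46.1 and 50.3 CPM to 18.3, 19.9 and 22.4 CPM (-1.24, -1.04 with offsets, RNA -1.83). ARL14 (-1.20 and -0.80, RNA -1.91), the elastase inhibitor PI3 (-0.69 and -0.79, RNA -1.86) and PALMD (-1.08 and -0.62, RNA -3.13) did so too. ZNF527, a zinc-finger gene of chromosome 19, rose in both, from 19.9, 18.7 and 17.5 CPM to 30.6, 32.6 and 27.3 CPM (0.69, 0.57 with offsets, RNA 1.5). The opposite also occurred. BIRC3, an inhibitor of apoptosis, read 275, 259 and 265 CPM against 147, 147 and 158 CPM (-0.81 and -0.34) with RNA up by 1.33, and GADD45A changed by -0.56 and -0.49 with RNA up by 1.13. ACSS1, the mitochondrial acetyl-CoA synthetase, gained H3K4me3 (0.79 and 0.46) with RNA lower by 1.33 on the log2 scale (-1.33).

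The largest RNA rises and falls at a mean log2 value of at least 5, in equal number, made up a set of 16 genes. Genes of lower RNA level were left out of this set, also where their change was larger. Promoter H3K4me3 could be read for 6 of the 16. PLAT, tissue plasminogen activator, rose by 2.12 in RNA with no change called in H3K4me3 (0.20, adjusted p = 0.0987 by edgeR). FGF5 RNA rose by 1.56 beside -0.13 in H3K4me3. MSMP and RGP1, overlapping genes whose RNA values were nearly identical (-4.85 for both) and cannot be told apart, share a promoter region that read 130, 120 and 124 CPM against 141, 157 and 142 CPM (0.23, and 0.05 with offsets).

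**Figure D5:**
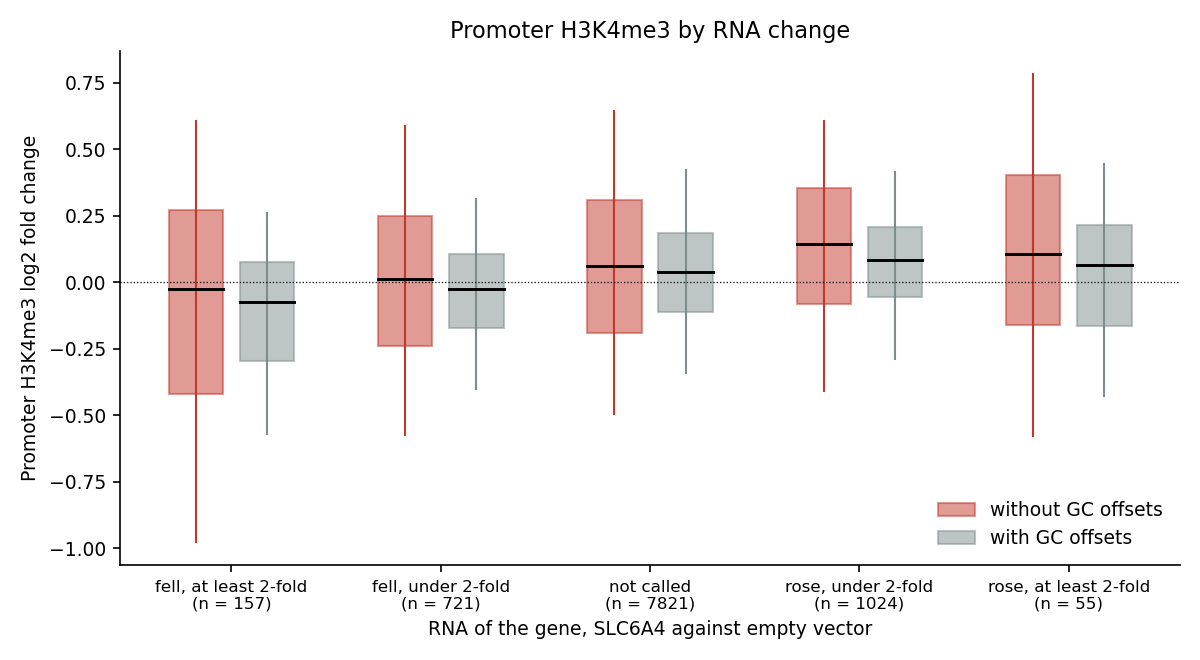
Promoter H3K4me3 log2 fold change by the RNA change of the gene (n genes per class), with and without GC offsets; the black bar is the median, boxes span the 25th to 75th and lines the 5th to 95th percentile. With offsets the median moves from -0.07 for genes with RNA lower by at least 2-fold to 0.08 for genes with RNA higher by less than 2-fold and 0.07 for those higher by at least 2-fold.

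The second mark at the same regions mostly moved with H3K4me3. H3K4me3Q5ser was called higher in 8081 regions (41.4%) and lower in 8063 (41.3%). Of the 5896 regions with more H3K4me3, 5209 had more H3K4me3Q5ser and 150 less, and of the 5741 with less, 5209 had less and 187 more; the libraries of both marks share the lines and the GC trend. With offsets in both, of 4139 regions with more H3K4me3, 3467 had more H3K4me3Q5ser and 129 less, and of 3727 with less, 3003 had less and 280 more. In a joint fit of 12 libraries, the change of H3K4me3Q5ser differed from that of H3K4me3 in 5755 regions (29.5% of 19534). Among the 18805 regions tested for H3K4me3, it was lower by at least 2-fold in 250, with median changes of 0.80 for H3K4me3 and -0.44 for H3K4me3Q5ser. Of the 250, 117 were zinc-finger regions of chromosome 19, a class with 178 promoters and 351 other regions among the 18805. The change of H3K4me3Q5ser was higher by at least 2-fold in 13 regions. None of the 13 lay on chromosome 19, which holds 8.06% of the regions tested.

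A second assay of the same mark, CUT&Tag (antibody-directed tagmentation), had 1 library of SLC6A4 cells and 1 of control cells, so it allows no test. Its CPM values cover peaks that the authors listed as not raised, by a criterion not given in the sources used here, so the ratios say nothing of raised peaks. At 9808 regions that overlap such a peak, the median log2 ratio of CPM + 1 was 0.11 where ChIP was higher, 0.08 where it was lower and 0.09 where it was not called. With GC offsets the medians were 0.13 (2528 regions) and 0.05 (2437 regions), with 78.9% and 61.4% of regions above 0. Spearman's rho across regions was 0.109, and 0.181 with offsets, and the CUT&Tag ratio had a rho of -0.0292 with region GC content; regions are not independent replicates. The zinc-finger regions of chromosome 19 outside promoters mostly lacked a CUT&Tag value, with 34 of 351 covered and a median of 0.02 there, and the promoters had 141 of 178 covered and a median of 0.13. Peaks that the authors listed as raised in CUT&Tag overlapped 1935 tested regions, of which 37.7% were higher and 30.4% lower by ChIP (31.6% and 22.5% with offsets). Of these regions, 85.9% were coding promoters, and of all coding promoter regions 39.0% were higher and 28.7% lower (27.2% and 20.3% with offsets).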

How the data were processed

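ChIP libraries of H3K4me3 and H3K4me3Q5ser were analysed for PC3 lines with SLC6A4 or the empty vector (3 each), with RNA and CUT&Tag beside them. The authors deposited estimated counts of read pairs per region from featureCounts 2.0.3, with multiple hits shared fractionally and a reverse-strand setting on regions without strand, per the file headers; how much that setting lowered the counts was not tested. Between 8.21% and 9.28% of values per H3K4me3 library of SLC6A4 or the empty vector were not whole, and all were rounded. The share was 11.2% to 14.8% in the H3K4me3Q5ser libraries and 5.86% to 8.41% in the DDC and input libraries. RNA values are the authors' normalised signal per gene, that is, reads divided by a size factor of DESeq2, and 100% came out as whole reads within 0.01 of a read. CUT&Tag values are CPM per peak and peak lists hold positions only, as deposited. The submitters' processing notes name HISAT2 2.1.0, Bowtie2, MACS2, HOMER and GRCh38, with no role or order.

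Fits used edgeR 4.0.16 (TMM scaling, filter on low counts, quasi-likelihood test) for ChIP and limma 3.58.1 with a trend on log2(value + 1) for RNA, after dropping genes that fewer than 3 libraries held at 10 or more, in R 4.3.3. Fold changes on that scale understate the change of low genes. edgeR on the whole RNA reads called 2594 genes against 2579. All tests were two-sided, with adjustment by Benjamini-Hochberg across every region or gene that passed the filter. GC offsets were lowess curves (span 0.3) of each library's log2 CPM on the GC content of the region in GRCh38, after TMM. A promoter region lies within 1000 bp of a GENCODE start site. Scripts were tested on simulated data. The members, lists and classes were chosen with earlier results of these data known. Named regions were the 8 of smallest p and 8 of largest change per direction with groups that do not overlap, the latter at a mean log2 CPM of at least 3. Added to these were up to 3 called members per list and the promoter regions of SLC6A4, DDC and TGM2 (SLC6A4 and DDC had none tested). Promoter regions of the 8 largest RNA rises and falls, at a mean log2 value of at least 5, were also named. Others were chosen after their values were seen. Promoter windows of RefSeq were found for 79 of 112 genes at named regions. Same-numbered libraries did not deviate together (correlations -0.00748 to 0.0221), so numbers were not used as pairs. From the counts, 3 columns per mark and line were used, and 3 columns of per-sample values were not used. Input of SLC6A4 was not analysed here.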

Additional observations from a re-analysis of the deposited data

Results flagged for a closer look

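In 284 regions the change of H3K4me3Q5ser between SLC6A4 and empty-vector cells was at least 2-fold below the change of H3K4me3, and in 27 regions at least 2-fold above it. Both sets were picked out because the difference between the marks itself passed the test (mark by line interaction over 12 libraries, edgeR, adjusted p of 0.05). With GC offsets the numbers were 223 and 29. Among the first set, 250 regions were also tested for H3K4me3 alone, and 117 of them were zinc-finger regions of chromosome 19. That class has 178 promoters and 351 other regions among the 18805 tested. An intron region of ZNF432 is an example: its H3K4me3 changed by 1.81 and its H3K4me3Q5ser by -0.24. The exon region of SLC6A4 belonged to the second set, with 1.83 for H3K4me3 and 4.62 for H3K4me3Q5ser.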

How the results depend on the processing

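Counts of called H3K4me3 regions (11637) stayed within 1.5 times under every alternative run: 11635 with size factors of DESeq2 in edgeR, 11759 when scaled by the total alone (6587 higher and 5172 lower), 9480 with DESeq2, 11675 without the filter, 11631 when rounded down and 11671 with all 9 H3K4me3 libraries. GC offsets gave 7866, and they moved the 2-fold falls from 637 to 74 and, for H3K4me3Q5ser, the 2-fold rises from 525 to 125 and the falls from 1465 to 397. With the replicate number as a block, 11593 regions were called, of which 433 rose and 634 fell by 2-fold, and with block and GC offsets together 7758, with 406 and 75; for H3K4me3Q5ser 16136, for the interaction 5738 and for RNA 2497. The block changed no other call by 1.5 times, and the samples share only a number. Leaving out 1 library at a time gave 10768 to 11031 H3K4me3 regions (457 to 509 up and 662 to 717 down by 2-fold), 15709 to 15799 for H3K4me3Q5ser (510 to 553 and 1461 to 1480), 4860 to 5704 for the interaction (19 to 37 and 264 to 312) and 1929 to 2359 RNA genes (85 to 125 and 223 to 345).

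Of 88 named regions with a test, GC offsets kept the call and direction of 64, took the call from 15 and changed the sign of 9. Of these 9, 4 were called in the other direction: S100A14 and S100A16 (-0.187, and -0.191 with the block), PLAU (-0.104, -0.105), RHOF and SETD1B (-0.227, -0.226) and JUND (-0.241, -0.247). The other 5 were no longer called: FOXA2 (-0.0277, -0.0284), CLDN7 and DVL2 (-0.00298, -0.00307), ITGB4 (-0.126, -0.131), HES4 and ISG15 (-0.122, -0.118) and TGM2 (-0.0856, -0.0846). The offsets themselves, which remove what runs with GC content, made these changes; the source of the GC trend was not tested. The planned comparison of input and the offset from SLC6A4 input were not run, since SLC6A4 input was not analysed here. DESeq2 took the call from 4 named regions and leaving out single libraries from at most 3. Depth limits short regions: the 730 untested ones had a median length of 403 bp.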
